A study of Mus musculus with 2 samples.

Results

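The genes described here are 5 Iroquois homeobox genes (Irx1, Irx2, Irx3, Irx5 and Irx6) and 5 genes of the Fto region (Fto, Rpgrip1l, Rbl2, Aktip and Chd9), 10 of the 29809 genes measured. They were chosen by name, as the 2 Irx genes that the mutant animals carry in single dose, other members of the family and the genes that lie beside them on chromosome 8. All 10 had rows in the tables and at least 1 transcript count. The tissue was the arcuate nucleus with the median eminence, at the base of the hypothalamus, and it was measured by Drop-seq, in which each cell is captured with a barcoded bead and the 3′ ends of its transcripts are read. Every molecule is counted once through a unique molecular identifier (UMI).

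There were 2 libraries, both from CD-1 mice aged 7-8 weeks, without treatment. The wild type library pooled 7 mice. The double heterozygote library pooled 5 mice of genotype Irx3/5+/-, with 1 mutant copy of both Irx3 and Irx5. Sorting kept live cells before capture. No cell could be assigned to a single mouse, so each genotype is 1 sample, no difference between them has a replicate check, and no p-value is given. The intervals below are exact 95% intervals that cover counting error only, not the spread between animals or dissections. The part of Irx3 and Irx5 that the mutant copies lack is not described in any source used here, so a 3′ count of either gene checks neither label.

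Iroquois proteins are transcription factors of the three-amino-acid-loop homeobox class that pattern the neural tube, heart and limbs in the embryo, and they are encoded in clusters of neighbouring genes. Fto encodes a demethylase that removes methyl groups from adenosines in RNA. Introns of the human FTO gene hold variants linked to body weight, and the regulatory DNA there is known to contact the Irx3 promoter, which is why Fto and the Irx genes are studied together in the hypothalamus. The cell classes matter for these genes. Ependymal cells are multiciliated cells lining the ventricle, tanycytes are radial glia of its floor, and oligodendrocyte precursors are dividing glia that give rise to myelinating cells.

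On the mouse genome build GRCm38, 8 of the 10 genes lie on chromosome 8 within 1852.6 kb, in the order Chd9, Rbl2, Aktip, Rpgrip1l, Fto, Irx3, Irx5 and Irx6. Irx3 covers chr8:91798525-91802067 on the minus strand, and Fto covers chr8:91313525-91668439 on the plus strand, with its start 488.542 kb from that of Irx3. Irx5 starts 555.558 kb away from Irx3 on the other side, at chr8:92357625-92376286. Irx1 (chr13:71957921-71963723) and Irx2 (chr13:72628820-72634198) form the second cluster, on chromosome 13. All 10 are protein-coding genes in the GENCODE M21 annotation.

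**Figure D1:**
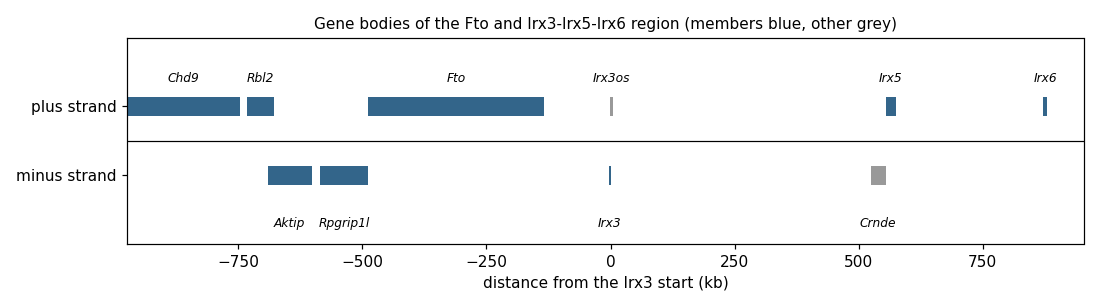
Map of the chromosome 8 region, with the distance from the Irx3 start in kb on the x axis and the plus and minus strands as rows. Blue bars are the bodies of the 8 described genes of this chromosome and grey bars the noncoding genes Irx3os and Crnde; Rbl2 and Aktip overlap, and Fto and Rpgrip1l start side by side on opposite strands.

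Some of these genes share transcribed bases. Rbl2 and Aktip run toward each other and overlap at chr8:91111784-91123844, a stretch of 12061 bp with 693 shared exon bases. Irx3 and its antisense RNA Irx3os overlap over 1653 bp, with 124 shared exon bases. The sources used here do not state whether the counting used the strand of the read, so reads in the shared exons cannot be assigned with certainty.

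Fto and Rpgrip1l start head to head, 303 bp apart in RefSeq, so 1 short stretch of DNA lies upstream of both. RefSeq promoter sequences on GRCm38.p6 were matched for 7 of the 10 genes (10 start sites), Irx1, Irx5 and Irx6 being the others, and the 250 bases upstream of each start were read. The longest run that the windows of Fto and Rbl2 share, on either strand, was ACTACATTTCCCAG (14 bases), and its closest other copy in the Fto window was ACTACCCTTCCCAG, with 2 different bases. The pattern that covers both, ACTACNNTTCCCAG, was chosen after the windows had been read, and its letters are known as part of the sequence bound by the zinc finger protein ZNF143. All windows were searched for it on both strands, and for GTTGCC, a half-site of the RFX factors of ciliated cells, which does not overlap it. The windows of Fto and Rbl2 are shown because they hold matches. That of Irx3 held none and is not shown, since it lies inside the first exon of Irx3 in GENCODE, whose start is farther upstream than that of RefSeq. Each runs 5′ to 3′ on the strand of the gene, and capitals mark the matches.
Fto, chr8:91313275-91313524, plus strand: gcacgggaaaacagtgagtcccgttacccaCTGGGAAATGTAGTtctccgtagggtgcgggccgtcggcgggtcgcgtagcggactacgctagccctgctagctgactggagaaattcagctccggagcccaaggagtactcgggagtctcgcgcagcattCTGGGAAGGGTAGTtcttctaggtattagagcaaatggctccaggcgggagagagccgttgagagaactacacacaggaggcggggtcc
Rbl2, chr8:91069807-91070056, plus strand: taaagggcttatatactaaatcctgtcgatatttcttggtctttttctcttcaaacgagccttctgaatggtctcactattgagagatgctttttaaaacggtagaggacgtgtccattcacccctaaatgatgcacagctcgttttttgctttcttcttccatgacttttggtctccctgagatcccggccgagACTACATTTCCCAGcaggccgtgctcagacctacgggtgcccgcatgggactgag
The Fto window held 2 matches, both on the minus strand, and the Rpgrip1l window held the same 2, because 198 of its 250 bases are the same DNA. The Rbl2 window held 1 match, 55 bases upstream of the start. Of 32851 promoter windows of this length, 0.530% (174) held the pattern and 0.253% (83) the run itself, and 10.4% held GTTGCC. The pattern was built from the Fto and Rbl2 windows, so the matches there and in the overlapping Rpgrip1l window were fixed in advance. The shares of the pattern and the run are no test for these genes. None of the 10 windows of the described genes held GTTGCC, which says only that those letters are not there.

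The wild type library held 2800 barcodes and 4426817 UMIs and the double heterozygote library 1800 barcodes and 2974060 UMIs. Of these, 2405 and 1484 barcodes had 300 or more genes and no more than 20% mitochondrial UMIs, and 2392 and 1480 remained after 17 called doublets were removed. The caller marked 0.437% of the cells, too few to have worked, so doublets may remain. The remaining cells held 4255875 and 2850978 UMIs, with medians of 1274 and 1156.5 UMIs per cell. They formed 21 clusters, named from marker genes, with the 10 genes left out of the clustering. The library pair shared 3 barcodes, which held 3 UMIs of the described genes.

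The classes differed in size and depth between the libraries. Neuron-like cells numbered 826 in wild type and 710 in double heterozygote cells, tanycyte-like cells 361 and 142, ependymal-like cells 185 and 110, and oligodendrocyte precursor-like cells 241 and 73. Median UMIs per cell were lower in the double heterozygote library for tanycyte-like cells (1410 and 876) and precursor-like cells (1140 and 709). Markers of the labelled tissue were present, with clusters led by Agrp and Npy, by Kiss1 and Tac2, and by the tanycyte genes Crym and Rax, and 1 cluster was led by Vip, Nms and Prok2, genes of the suprachiasmatic nucleus. No cluster was named astrocyte-like. Of the ependymal-like clusters, cluster 13 held the strict ependymal markers Ccdc153, Tmem212 and Sntn in its leading genes, at 22124 and 23869 CPM (UMIs per 1000000 UMIs of the cells summed) for the list of 11 markers. Cluster 8 had the same list at 11100 and 11315 CPM. It also carried tanycyte markers at 1480 and 1917 CPM, against 173 and 242 CPM in cluster 13. Tanycyte was a candidate name of cluster 8 but not of cluster 13. Astrocyte markers were at 3271 and 3951 CPM in cluster 8 and at 2004 and 1805 CPM in cluster 13. Ependymal values of Irx3, Irx5 and Rpgrip1l are therefore given for both clusters, and those of the other genes for the class as a whole.

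Transcripts of the Iroquois genes were rare and lay mostly in glia and ependymal cells, with few in neurons. In all kept cells Irx3 had 30 UMIs in wild type and 15 in double heterozygote cells, Irx5 16 and 6, Irx1 12 and 3, Irx2 10 and 9, and Irx6 2 and 1. Neuron-like cells held 54.1% of all UMIs of the kept cells but 2.22% of the Irx3 UMIs (1 of 45), 9.09% of Irx5 (2 of 22), 6.67% of Irx1 (1 of 15) and 5.26% of Irx2 (1 of 19). At least 1 Iroquois UMI was found in 81 of 3872 cells. These made up 10.8% of oligodendrocyte precursor-like cells (34 of 314, 7.62 to 14.8) and 8.81% of ependymal-like cells (26 of 295, 5.84 to 12.6), but 0.326% of neurons (5 of 1536, 0.106 to 0.758). The median depth was 1036.5, 1325 and 1638 UMIs per cell in those classes, so neurons were the deepest.

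Free RNA was not measured, so the share of cells with an Iroquois UMI is given for classes not known for these genes. It was 0.262% in oligodendrocyte-like cells (1 of 382, 0.00663 to 1.45, median 1226.5 UMIs) and 0 of 150 in microglia-like cells (median 782.5 UMIs), where the interval reaches up to 2.43% of cells with a UMI. The intervals of the precursor-like and ependymal-like cells lay above that of oligodendrocyte-like cells, and that of neurons lay inside it. Mural-like cells had no Iroquois UMI in 131 cells, where the interval reaches up to 2.78%, and fibroblast-like cells had 1 in 278 cells (0.360%). Tanycyte-like cells had a UMI in 6 of 503 cells (1.19%, 0.439 to 2.58).

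**Figure D2:**
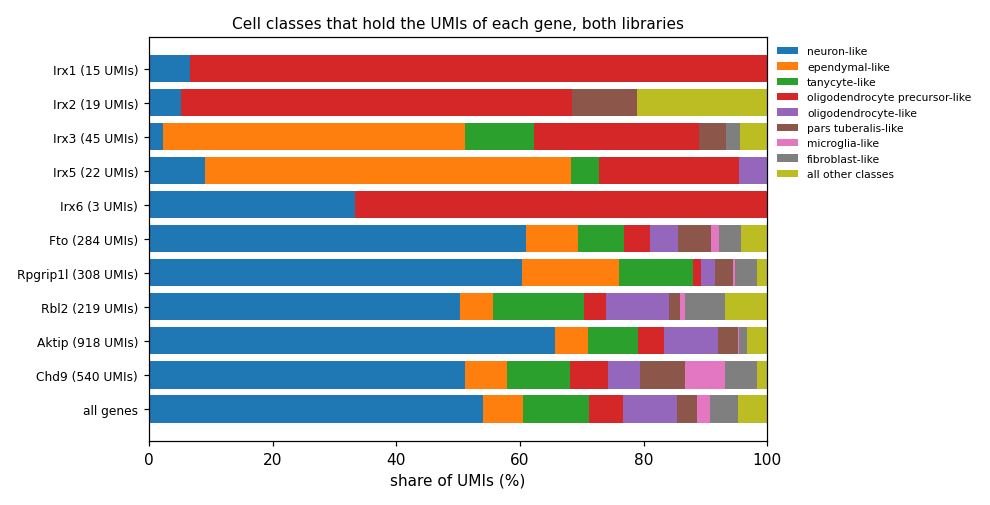
Share of the UMIs of each gene (x axis, percent of its UMIs in both libraries) held by each cell class (colours), with all genes together in the lowest bar. The bars of Irx1 to Irx6 are mostly red and orange, the oligodendrocyte precursor-like and ependymal-like classes, while neuron-like cells hold between 50.2% and 65.7% of the UMIs of the other 5 genes.

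Irx3 was found in ependymal-like and oligodendrocyte precursor-like cells, and no order of their levels is claimed in either library. In wild type ependymal-like cells were higher (57.6 CPM against 24.4 CPM, in 7.03% and 2.90% of cells). In the double heterozygote precursor-like cells were higher (59.8 CPM against 32.1 CPM, in 5.48% and 3.64% of cells), on 4 and 5 UMIs. The intervals of the classes overlap in both libraries (33.6 to 92.3 and 10.5 to 48.0 CPM in wild type). When each cell was thinned to 500 UMIs, Irx3 was found in 1.84% of 163 ependymal-like and 1.40% of 215 precursor-like cells of wild type. In the double heterozygote these shares were 1.01% of 99 and 5.17% of 58 cells. In both libraries together ependymal-like cells held 48.9% of its UMIs (22 of 45, 33.7 to 64.2) and 6.34% of all UMIs, and precursor-like cells held 26.7% (12 of 45, 14.6 to 41.9) and 5.56% of all UMIs. In ependymal-like cells there were 17 UMIs in 13 cells of wild type (57.6 CPM, 33.6 to 92.3) and 5 UMIs in 4 cells of the double heterozygote (32.1 CPM, 10.4 to 74.8). The intervals of the libraries overlap, and the ratio of double heterozygote to wild type was 0.556 (0.161 to 1.57). In precursor-like cells the order was the other way, with 8 UMIs in wild type (24.4 CPM) and 4 in the double heterozygote (59.8 CPM), a ratio of 2.45 (0.541 to 9.16). Whether the ratio differs between these classes was not tested.

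Within the ependymal-like class of wild type, 16 of the 17 Irx3 UMIs lay in cluster 13 (111 CPM), the one with the higher ependymal markers, and 1 in cluster 8. In the double heterozygote cluster 13 held 2 UMIs (28.4 CPM) and cluster 8 held 3 (35.1 CPM). The ratio in cluster 13 was 0.256 (0.0286 to 1.09). Cluster 13 was looked at alone after its values were seen. The rest of the Irx3 UMIs were 5 in tanycyte-like cells (3 and 2), 2 in endothelial-like cells of wild type, 2 in 1 pars tuberalis-like cell of the double heterozygote, 1 in a fibroblast-like cell and 1 in a neuron. The antisense RNA Irx3os, named outside the rule after its values were seen, had 3 UMIs in wild type and 2 in double heterozygote cells.

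Irx5, the other mutated gene, followed the same classes. Ependymal-like cells held 59.1% of its UMIs (13 of 22, 36.4 to 79.3), with 8 UMIs in wild type (27.1 CPM) and 5 in the double heterozygote (32.1 CPM), a ratio of 1.18 (0.304 to 4.10). Cluster 13 held 5 and 4 of these and cluster 8 held 3 and 1. Precursor-like cells had 5 UMIs of Irx5 in wild type and 0 in double heterozygote cells, where the interval reaches up to 55.2 CPM against 15.2 CPM in wild type, so a loss was not detectable at this depth. Irx3 and Irx5 were found together in 2 cells, both ependymal-like, of 17 with Irx3 and 11 with Irx5 in that class.

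Irx1 and Irx2, the neighbours on chromosome 13, were found in oligodendrocyte precursor-like cells and not in ependymal-like cells. Irx1 had 14 of its 15 UMIs in precursor-like cells (93.3%, 68.1 to 99.8), all of them in cluster 4, the larger precursor cluster, with 11 UMIs in wild type (33.5 CPM) and 3 in the double heterozygote (44.9 CPM). Irx2 had 12 of its 19 UMIs there (63.2%, 38.4 to 83.7) and 4 in the 17 cycling cells, the cluster led by Top2a and Mki67, whose second candidate name was oligodendrocyte precursor. In 295 ependymal-like cells neither gene had a UMI, which for the class as a whole allows up to 8.18 CPM as the upper bound of the interval. Both genes were found together in 2 precursor-like cells, and neither was found in any cell with Irx3. Of the 314 precursor-like cells, 12 had Irx1, 10 had Irx2 and 11 had Irx3. These are too few for separate cells to be read from the lack of overlap. Irx6 had 3 UMIs in all, 2 in precursor-like cells and 1 in a neuron.

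Among the Iroquois genes, Irx2 alone had a counting interval between libraries off 1 in any of the 12 classes, and in precursor-like cells only. Precursor-like cells held 5 UMIs in 5 cells of wild type (15.2 CPM, 4.95 to 35.6) and 7 UMIs in 5 cells of the double heterozygote (105 CPM, 42.1 to 216), a ratio of 6.87 (1.88 to 27.5). Of the 7498 genes with at least 10 UMIs in these cells, 6.54% had such an interval off 1, 3.71% on the higher side. When each cell was thinned to 500 UMIs, Irx2 was found in 1.86% of 215 wild type cells (4 cells) and in 1.72% of 58 double heterozygote cells (1 cell), against 2.07% and 6.85% unthinned. No direction is read from these shares. The precursor-like class itself was smaller and shallower in the double heterozygote library, and the part of this in the Irx2 ratio was not tested.

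**Figure D3:**
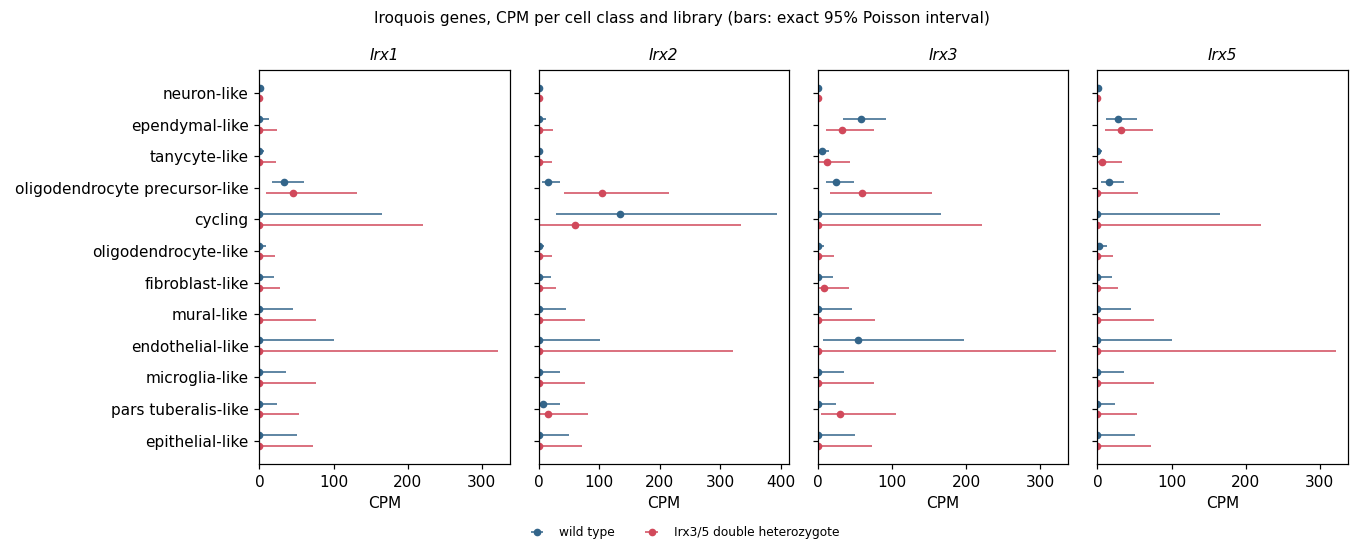
Level of Irx1, Irx2, Irx3 and Irx5 (x axis, CPM, a scale of its own for each gene) in each cell class, with 1 point per library and bars for the exact 95% Poisson interval. Ependymal-like cells have UMIs of Irx3 and Irx5 in both libraries, and oligodendrocyte precursor-like cells have UMIs of all 4 genes, except Irx5 in the double heterozygote. Points of Irx2 in cycling cells (3 and 1 UMIs), Irx3 in wild type endothelial-like cells (2 UMIs) and Irx3 in double heterozygote pars tuberalis-like cells (2 UMIs) also lie away from 0, and the bars are long in such classes with few cells.

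Over all kept cells the Irx genes did not differ between the libraries beyond counting error. The ratio of double heterozygote to wild type was 0.746 (0.373 to 1.43) for Irx3, 0.560 (0.179 to 1.51) for Irx5, 0.373 (0.0676 to 1.38) for Irx1 and 1.34 (0.483 to 3.68) for Irx2. The values for Irx3 and Irx5 were 7.05 and 5.26 CPM and 3.76 and 2.10 CPM. Fewer cells of a class and less RNA per cell cannot be told apart in such sums. Neurons, which hold almost none of these UMIs, made up a larger part of the double heterozygote library, and without them the ratio was 1.15 (0.564 to 2.24) for Irx3 (12.9 and 14.9 CPM) and 1.06 for Irx5 (14 and 6 UMIs). A level 0.5 times that of wild type lies inside the interval of Irx3 in all kept cells and in ependymal-like cells, and outside its interval without neurons. The mix of the remaining classes also differed between the libraries, and the part of this in the ratio without neurons was not tested. Over all barcodes Irx3 had 32 and 15 UMIs (0.698, 0.351 to 1.33) and Irx5 16 and 6.

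Past a 1.5-fold difference in all kept cells were 2 of the 9 described genes with at least 10 UMIs, Irx1 and Irx5, both lower in the double heterozygote. Among all 18951 genes with that many UMIs, 33.0% passed the same fold, and 23.6% did so on the lower side. Intervals lay off 1 for Rpgrip1l and Rbl2, against 32.9% of all genes. These shares are near or below the background and are no result about the described genes.

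Fto was found in every named class with a pooled level between 21 and 66.8 CPM, and more evenly than the Irx genes. Neurons held 60.9% of its UMIs (173 of 284, 55.0 to 66.6) and 54.1% of all UMIs. Ependymal-like cells had 53.2 CPM (34.1 to 79.2) in both libraries together, tanycyte-like cells 27.5 CPM (17.0 to 42.0), precursor-like cells 30.4 CPM (15.7 to 53.1), fibroblast-like cells 31.5 CPM (15.1 to 57.9) and oligodendrocyte-like cells 21 CPM (11.2 to 35.9). The neuron interval (38.6 to 52.3, around 45.0) lay above that of oligodendrocyte-like cells and overlapped the others. In neurons Fto had 102 UMIs in wild type (52.8 CPM, 43.0 to 64.1) and 71 in the double heterozygote (37.2 CPM, 29.0 to 46.9), a ratio of 0.704 (0.513 to 0.963). Scaled by TMM this interval still lay below 1, but ended next to it.

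Of the 7 neuron clusters, Fto was lower in the double heterozygote in 6 and higher in 1 (cluster 7, 12 and 7 UMIs, 1.38, 0.462 to 3.81), and every one of these intervals included 1. Cluster 6, led by long noncoding RNAs such as Meg3 and Kcnq1ot1 and with a median of 663 UMIs per cell, had the highest pooled Fto level of the neuron clusters, 105 CPM (64.2 to 162), with 16 UMIs in wild type and 4 in double heterozygote cells (0.420, 0.102 to 1.30). It held 144 wild type and 63 double heterozygote cells. In cluster 0, the largest neuron cluster, Fto had 44 and 46 UMIs (41.2 and 36.8 CPM, ratio 0.894, 0.579 to 1.38). Without cluster 6, a choice made after seeing the data, the log2 ratio over neurons was -0.38, against -0.51 with it. No counting interval was computed without this cluster, so no Fto interval off 1 is claimed for the remaining neurons. After thinning each neuron to 500 UMIs, Fto was found in 3.51% of 741 wild type neurons (2.30 to 5.10) and 1.58% of 633 double heterozygote neurons (0.760 to 2.89), with 10.8% and 9.15% unthinned. Thinned oligodendrocyte-like cells had 0.823% and 0.901%.

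Outside neurons the Fto intervals all included 1. There were 83 UMIs in wild type and 28 in double heterozygote cells (35.7 and 29.7 CPM, 0.833, 0.522 to 1.29). In ependymal-like cells Fto had 15 and 9 UMIs (50.9 and 57.7 CPM), and in tanycyte-like cells 16 and 5 (26.9 and 29.4 CPM). In precursor-like cells the 3 double heterozygote UMIs came from 1 cell, against 9 UMIs in 9 wild type cells. Over all kept cells Fto had 43.5 and 34.7 CPM (0.799, 0.619 to 1.03).

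Rpgrip1l, which encodes a protein of the transition zone at the base of the cilium, had its highest pooled level in ependymal-like cells. There it had 31 UMIs in wild type (105 CPM, 71.4 to 149) and 17 in the double heterozygote (109 CPM, 63.5 to 175), against 42.4 CPM (33.7 to 52.7) and 54.5 CPM (44.5 to 66.0) in neurons. The wild type intervals of these classes do not overlap, and those of the double heterozygote do. Both ependymal-like clusters carried it, cluster 13 at 117 CPM (75.4 to 172) and cluster 8 at 97.3 CPM (61.7 to 146). Tanycyte-like cells had 48.4 CPM (34.1 to 66.7), oligodendrocyte-like cells 11.3 CPM (4.55 to 23.3) and precursor-like cells 10.1 CPM (2.76 to 25.9). Ependymal-like cells held 15.6% of the Rpgrip1l UMIs (11.7 to 20.1), 19.5% of the wild type and 11.4% of the double heterozygote UMIs, and 6.34% of all UMIs. This share was 8.12% at a clustering resolution of 0.5, where cluster 8 was classed as tanycyte-like, and 8.87% among cells with at least 500 genes. For Fto, whose upstream window Rpgrip1l shares, it was 8.45% (5.49 to 12.3), or 8.11% and 9.09% by library, so the intervals of the genes overlap.

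Rpgrip1l was the only described gene whose interval over all kept cells lay above 1. It had 159 UMIs in wild type (37.4 CPM) and 149 in the double heterozygote (52.3 CPM), a ratio of 1.40 (1.11 to 1.76). Neurons (82 and 104 UMIs, 1.28, 0.952 to 1.74) and all other cells (77 and 45 UMIs, 1.44, 0.976 to 2.11) both had a value above 1 with an interval that reached below it. Scaled by TMM, the interval of the other cells was 1.01 to 2.19. Ependymal-like cells had a ratio of 1.04 (0.539 to 1.93). In precursor-like cells no wild type UMI and 4 double heterozygote UMIs were found, and the interval of the ratio starts at 3.24. Mural-like cells likewise had 0 and 4 UMIs, with an interval that starts at 1.12. In each of these classes the 4 UMIs came from 3 cells. Oligodendrocyte-like cells had 7 and 0 UMIs, with an interval that includes 1. All these counts are below the limit of 10 UMIs used for all genes, so no direction is read from them.

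Rbl2, which encodes the pocket protein p130 that holds cells out of the division cycle, was found in 10 of the 12 classes. Neurons had 28.6 CPM (23.5 to 34.5), ependymal-like cells 26.6 CPM, tanycyte-like cells 41.9 CPM (28.6 to 59.1) and fibroblast-like cells 44.1 CPM (24.1 to 74.0), with overlapping intervals. Over all kept cells there were 146 UMIs in wild type (34.3 CPM) and 73 in the double heterozygote (25.6 CPM), a ratio of 0.746 (0.556 to 0.995). The upper bound lies next to 1, and over all barcodes the interval was 0.576 to 1.02. Scaled by TMM it was 0.577 to 1.03 and by median of ratios 0.573 to 1.03, so the interval lay off 1 under CPM only. Among classes with at least 10 Rbl2 UMIs, the lowest ratios were in tanycyte-like cells, with 29 and 3 UMIs (48.8 and 17.6 CPM, 0.361, 0.0704 to 1.17), and fibroblast-like cells, with 11 and 3 UMIs (0.380, 0.0680 to 1.44). With fewer UMIs, pars tuberalis-like cells had 4 and 0 and microglia-like cells 2 and 0.

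Aktip, which encodes a protein that binds the Hook adaptors of dynein and is needed for telomere upkeep, was found in 23.6% of wild type and 29.0% of double heterozygote neurons. Neurons held 65.7% of its UMIs (603 of 918, 62.5 to 68.8), with 300 UMIs in wild type (155 CPM) and 303 in the double heterozygote (159 CPM), a ratio of 1.02 (0.868 to 1.20). Outside neurons it had 244 UMIs (105 CPM) and 71 UMIs (75.4 CPM), a ratio of 0.718 (0.543 to 0.939). Among all genes with at least 10 UMIs in those cells 19.7% had an interval off 1, 11.6% on the lower side, and of the 9 described genes so measured Aktip was the only one.

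The Aktip values outside neurons came from several classes. Tanycyte-like cells had 65 and 10 UMIs (109 and 58.8 CPM, 0.537, 0.246 to 1.05), precursor-like cells 35 and 3 (107 and 44.9 CPM, 0.421, 0.0828 to 1.33) and pars tuberalis-like cells 25 and 4 (160 and 58.3 CPM, 0.364, 0.0921 to 1.05). Ependymal-like cells went the other way, with 28 and 20 UMIs (94.9 and 128 CPM, 1.35, 0.722 to 2.49). Each of these intervals includes 1. Tanycyte-like and precursor-like cells were also the classes with lower UMI counts per cell in the double heterozygote library, and the part of this in the Aktip ratio was not tested. Aktip was scarce in microglia-like cells (2 UMIs, 13.1 CPM, 1.59 to 47.3) and in neuron cluster 6 (42.1 CPM, 18.2 to 82.9, against 171 CPM, 154 to 188, in cluster 0). Rbl2 and Aktip, whose exons overlap, were found together in 76 cells, of 190 with Rbl2 and 644 with Aktip. Genes that share no exon bases with Aktip were also found with it. These were Rpgrip1l in 86 of its 240 cells, Fto in 83 of 255 and Chd9 in 104 of 405. The part of shared reads in the joint count of Rbl2 and Aktip was not tested.

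Chd9, a chromatin remodeller of the CHD family, had its highest pooled levels in microglia-like cells, at 229 CPM (160 to 319), and pars tuberalis-like cells, at 174 CPM (123 to 237). Both intervals lay above that of neurons (71.8 CPM, 63.6 to 80.8), and both libraries showed the order, with 183 and 329 CPM in microglia-like cells and 179 and 160 CPM in pars tuberalis-like cells. Among neuron clusters it was highest in cluster 6, at 210 CPM (150 to 286), against 66.9 CPM (56.8 to 78.3) in cluster 0. Neurons had 158 UMIs in wild type (81.8 CPM) and 118 in the double heterozygote (61.8 CPM), a ratio of 0.756 (0.590 to 0.965), whose interval came to include 1 when scaled by TMM, and other cells had 178 and 86 UMIs (76.6 and 91.4 CPM, 1.19, 0.911 to 1.55). Whether these ratios differ was not tested. In neurons 24.0% of all 15381 genes measured had an interval off 1, and 15.1% on the lower side, and of the 5 described genes with at least 10 UMIs it was Fto and Chd9, both lower.

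**Figure D4:**
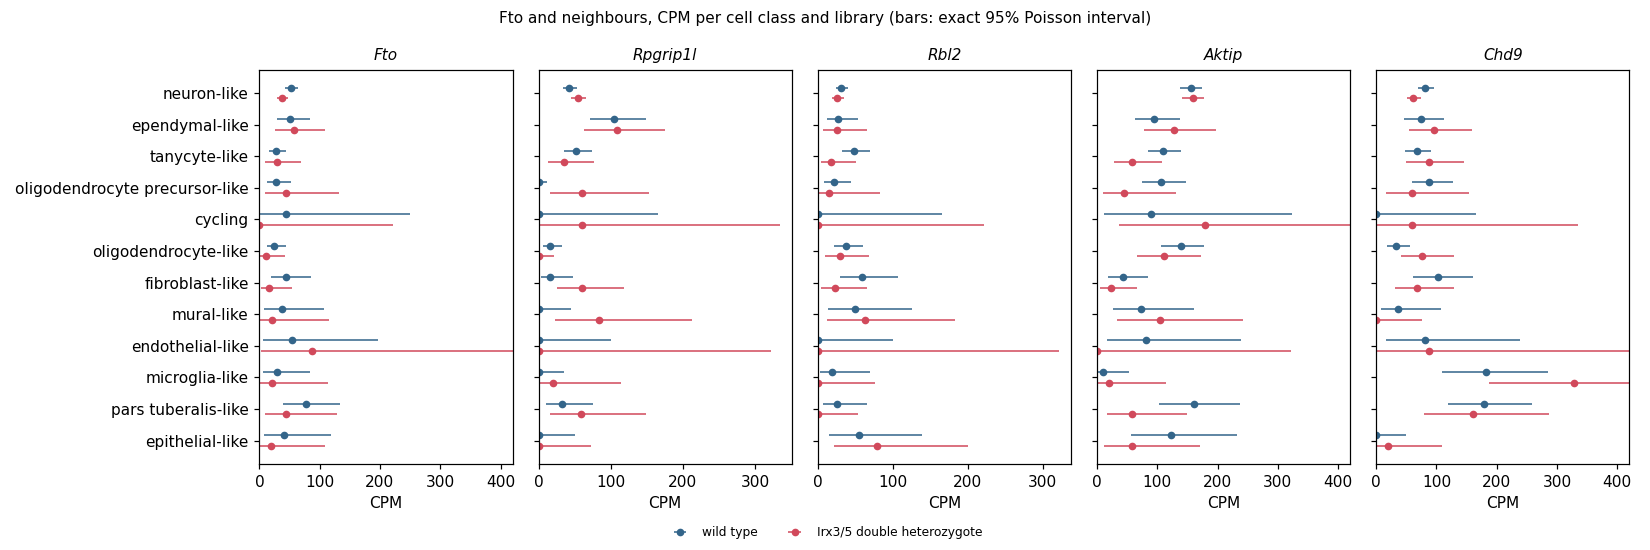
Level of Fto, Rpgrip1l, Rbl2, Aktip and Chd9 (x axis, CPM, a scale of its own for each gene) in each cell class, with 1 point per library and bars for the exact 95% Poisson interval. Axes end at 420 CPM at most, so a few bars of classes with few cells run past the edge; Rpgrip1l stands out in the ependymal-like row and Chd9 in the microglia-like and pars tuberalis-like rows.

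Class by class, the described genes past 1.5-fold can be set beside the share of all genes that passed it. In ependymal-like cells it was 1 of 7 measured (Irx3, lower), where 41.5% of all genes passed, 24.5% on the lower side, and no interval of the 7 lay off 1, against 10.4% of all genes. In tanycyte-like cells it was 2 of 5 (Rbl2 and Aktip, lower), where 43.8% of all genes passed, 26.0% on the lower side, and no interval of the 5 lay off 1, against 11.2%. In precursor-like cells it was 4 of 6 (Irx2, Irx3 and Fto higher, Aktip lower), where 49.2% passed. In fibroblast-like cells it was 5 of 5 (Rpgrip1l higher, with 3 and 8 UMIs, and the other 4 lower), where 46.0% passed, and each interval included 1, against 13.5% of all genes with an interval off 1. In all cells other than neurons it was 2 of 9 (Irx2 higher and Rbl2 lower), where 35.1% passed, and in neurons 0 of 5, where 31.4% passed.

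**Figure D5:**
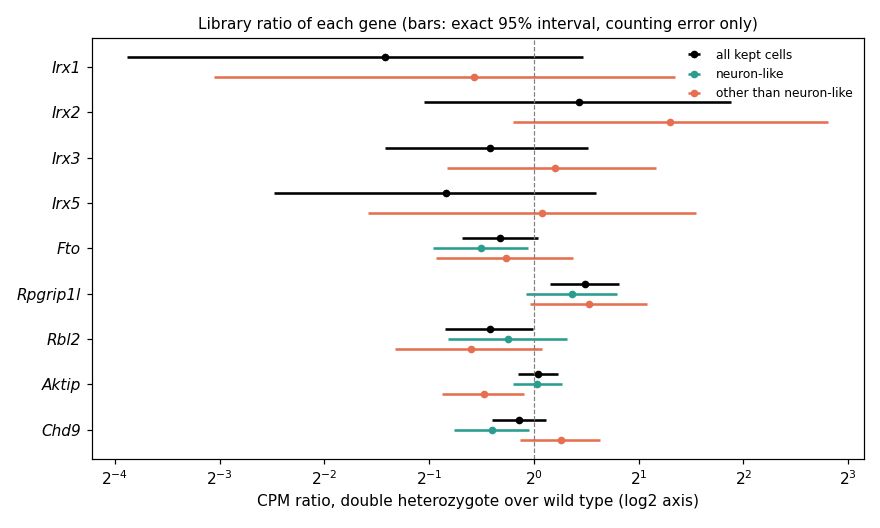
Ratio of double heterozygote to wild type CPM for each gene (x axis, log2 spacing), with points for all kept cells, neuron-like cells and all other cells and bars for the exact 95% counting interval. Rpgrip1l lies above 1 in all 3 sets, Fto and Rbl2 below, and Aktip and Chd9 fall on different sides in neurons and other cells; neuron points of the Irx genes are not drawn, as neurons hold at most 2 of their UMIs.

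The medians of the wider gene lists lay between -0.21 and -0.02. These are log2 ratios of double heterozygote to wild type in kept cells, which had a median of -0.09 over all genes. Of the homeobox family of the Irx genes (Irx, Meis, Pbx, Pknox, Tgif and Mkx), 16 genes were measured, with a median of -0.10. Past 1.5-fold 1 of them was higher and 4 were lower, where 33.0% of all genes passed either way. The higher gene was Pbx3, with 31 and 36 UMIs (1.73, 1.04 to 2.90). Irx1 (0.373, 0.0676 to 1.38) and Irx5 (0.560, 0.179 to 1.51) were among the 4 lower genes. Meis3, with 122 and 111 UMIs (1.36, 1.04 to 1.77), was within 1.5-fold. In a list of further genes for the Irx and Fto loci 9 were measured, with a median of -0.21. Past 1.5-fold 3 were lower and 0 higher, where 23.6% of all genes were lower. The lower genes were Nkd1, a Wnt inhibitor (119 and 35 UMIs, 0.439), Lpcat2 (93 and 34, 0.546) and Sall1 (47 and 15, 0.476). The positions of these 9 genes were not looked up, and some may lie outside the stretch of chromosome 8 mapped above. Without neurons Sall1 was at 0.788 (0.409 to 1.43) and Lpcat2 at 0.841 (0.540 to 1.28).

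The partners of Rpgrip1l in the transition zone were measured in full, with all 22 genes past 10 UMIs, Rpgrip1l included. Past 1.5-fold 2 were lower and 0 higher (median -0.07), where 33.0% of all genes passed either way. The lower genes were Cc2d2a (166 and 66 UMIs, 0.594, 0.439 to 0.794) and Tctn3 (49 and 21, 0.640, 0.364 to 1.09). B9d2 (1.31, 1.03 to 1.67) and Rpgrip1 (1.41, 1.04 to 1.92) had intervals above 1. Of these 22 genes 18 had a higher pooled CPM in ependymal-like cells than in neurons, against 40.5% of all genes measured, and 17 of 22 did so in wild type and 20 of 21 in the double heterozygote. Examples were Tmem107 (572 CPM in ependymal-like cells and 41.4 CPM in neurons) and Cep290 (293 and 93.7 CPM). These partners, unlike Rpgrip1l, took part in the clustering that defined the classes, so their class levels are a description. Ahi1, a transition zone gene that neurons also use, went the other way, at 366 and 3116 CPM.

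Genes of the pathways of Fto, Rbl2, Aktip and Chd9 were mostly within 1.5-fold, a difference that 33.0% of all genes measured passed in kept cells. None of 17 genes that write, erase or read N6-methyladenosine passed it, with a median of -0.02, for example the second eraser Alkbh5 (225 and 143 UMIs, 0.949, 0.764 to 1.18) and the writer Mettl3 (116 and 69, 0.888, 0.649 to 1.21). Of 12 pocket protein and DREAM complex genes 1 was lower, E2f5 (142 and 54 UMIs, 0.568, 0.407 to 0.782), and the median was -0.11. None of 6 genes of the Aktip complex passed it (median -0.15), Hook3 having 429 and 264 UMIs (0.919, 0.785 to 1.07) and Hook1 254 and 213 (1.25, 1.04 to 1.51). None of 10 CHD remodellers passed it, with a median of -0.13 in all kept cells and -0.32 in neurons, where all genes had -0.08. Their list includes Chd9 itself, and Chd4, the most counted, had 1245 and 758 UMIs (0.909, 0.829 to 0.996). The listed genes were not matched to all genes for UMI counts, so the counts past 1.5-fold are no result about these pathways.

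Genes with a class pattern close to that of each described gene were ranked by Pearson r of log2(CPM + 10) over the 11 classes with at least 20 cells, as a description over sums that share libraries and depth. For Irx3 the closest was Slc38a3, a glutamine transporter (r = 0.91), and Fgfr3 was also among the closest 5 (0.88). For Rpgrip1l they were 1810043G02Rik (0.97) and Bicdl1 (0.95), with the intraflagellar transport gene Ift46 among the closest 5 (0.93). For Chd9 they were Nfat5 (0.95) and Noc2l (0.93), with the acetyltransferase Ep300 among the closest 5 (0.90). Among the described genes themselves Irx3 and Irx5 had r = 0.70, Fto and Rpgrip1l 0.22, Fto and Irx3 0.58, and Rbl2 and Aktip 0.26.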

How the data were processed

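Drop-seq libraries of 1 wild type pool and 1 double heterozygote pool were analysed. The authors deposited whole-number UMI counts per gene and barcode for each library, and a merged table of natural log values whose barcodes were used here only for an alternative cell set. Per the submitters' processing notes, bcl2fastq, Picard, STAR 2.6.0b, Seurat 3 and the build mm10 were used, with no role stated. The sources used here do not give the annotation, the strand setting or the handling of reads with several positions.

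Here barcodes with at least 300 genes and at most 20% mt- UMIs were kept, and doublets were called with Scrublet in scanpy 1.11.5 at an expected rate of 5%. Cells were clustered on 2000 variable genes, 30 components and 20 neighbours (Leiden, leidenalg 0.10.2, resolution 1), leaving out the described genes, the other Irx genes, Irx3os, Crnde, and mitochondrial, ribosomal, haemoglobin and sex-linked genes. A cluster took a class name when at least 3 markers of it were in at least 10% of its cells at over 2 times the median cluster and its score was at least 0.5 times the best, ties going to the class with more markers among the top 10 genes. "Like" is left off some class names for brevity. UMIs were summed per library and class and scaled to CPM. Intervals are exact at 95% (Poisson for levels, conditional binomial for ratios, Clopper-Pearson for shares), and ratio intervals were tested on simulated counts. PCR copies are removed by UMIs, but intervals cover counting error only. Some zeros are given with the upper bound of their exact interval, and others as counts only. Differences past 1.5-fold were counted over genes with at least 10 UMIs. Shares across depths were repeated after thinning cells to 500 UMIs.

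Named genes were the 10 members, genes of 7 lists with at least 30 UMIs in kept cells, and the 5 closest genes by class pattern. Members, lists, markers and limits were chosen with earlier results of these data known. Alternatives were other filters, resolutions, class rules and scalings (TMM of edgeR 4.0.16 and median of ratios). Some genes that the rule for named genes would take are not reported here.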

Additional observations from a re-analysis of the deposited data

Results flagged for a closer look

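The barcodes removed by the gene and mitochondrial limits, 395 of wild type and 316 of the other library, belong to no comparison above and held 144327 and 112034 UMIs. In them Fto had 62.5 CPM in the double heterozygote (7 UMIs) and 20.8 CPM in wild type (3 UMIs), a ratio of 3.01 (0.686 to 18.0), and was listed because the level in the double heterozygote was above that of the control library. Aktip was listed for the same reason, at 89.3 CPM (10 UMIs) against 62.4 CPM (9 UMIs), a ratio of 1.43 (0.523 to 3.98). Both intervals include 1. Chd9 had 143 and 159 CPM there (16 and 23 UMIs), and Irx2 and Irx3 had 1 UMI each, both in wild type.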

How the results depend on the processing

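Of 164 recomputed values under other settings, 152 stayed inside the counting interval of the main value, 11 moved outside it and 1 reversed the sign of a called value. The 197 values recomputed under settings chosen after seeing the data, for ratios within classes, stayed within the counting intervals. Without neurons the log2 ratio of Irx5 was 0.081, a reversal, that of Aktip was -0.48 and that of Chd9 was 0.25. With the double heterozygote library alone, ependymal-like cells held 33.3% of Irx3 UMIs, 83.3% of Irx5 UMIs and 11.4% of Rpgrip1l UMIs, and neurons held 71.7% of Fto UMIs. The ependymal-like share of Rpgrip1l was 8.12% at resolution 0.5, where cluster 8 was classed as tanycyte-like, 8.87% with at least 500 genes per cell and 29.4% as a share of CPM summed over classes. The neuron share of Fto was 52.5% with each cell classed by its own marker score and 9.95% over class CPM, which weights classes equally. The ratio of Irx3 in ependymal-like cells was lower, at a log2 value of -1.97, at resolution 0.5. Scaling by TMM shifted all log2 ratios by 0.05 and by median of ratios by 0.04. Under both, the interval of Rbl2 over kept cells came to include 1 and those of Rpgrip1l in cells other than neurons and Chd9 in oligodendrocyte-like cells (15 and 13 UMIs) came to lie above it, and under TMM that of Chd9 in neurons included 1. Irx6 without its top cell gave no value. The Irx genes rest on 3 to 45 UMIs each, so depth limits them to differences of several fold. No paired analysis was possible because each genotype is 1 pooled library.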
